A study of Mus musculus with 8 samples.

Results

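Cells make most of their phosphatidylcholine, the main phospholipid of animal membranes, from choline taken up from outside. Carriers bring choline across the membrane, choline kinase phosphorylates it, a cytidylyl transferase turns phosphocholine into CDP-choline, and a cholinephosphotransferase joins that headgroup to diacylglycerol. A parallel branch handles ethanolamine, whose phosphorylated form is o-phosphoethanolamine (pEtn), and methylation of phosphatidylethanolamine is a further source of phosphatidylcholine, best known from liver.

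Described here are the 9 genes of the choline branch, chosen by name for the carriers Slc44a1, Slc44a2, Flvcr1 and Flvcr2, the kinases Chka and Chkb, the cytidylyl transferases Pcyt1a and Pcyt1b, and the cholinephosphotransferase Chpt1, out of 45232 genes in the deposited table. All 9 were in the table. Flvcr1 and Flvcr2 stood there under their older names Mfsd7b (ENSMUSG00000066595) and Mfsd7c (ENSMUSG00000034258) and were matched by identifier. RNA came in bulk from CD8 T cells of OT-I mice, which carry a transgenic T cell receptor for the ovalbumin peptide SIINFEKL. All cells were activated with that peptide and grown for 5 days with IL-2, in RPMI with 10% FBS (fetal bovine serum). In the pEtn group (4 libraries) the medium also held 470 µM pEtn, and in the RPMI group (4 libraries) it did not. The labels give neither the age nor the sex of the mice, and do not say whether the numbered libraries came from separate animals or cultures, so the p-values measure only the spread between these libraries. In bulk RNA, fewer cells that use a gene and less of its RNA per cell cannot be told apart.

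Total counts ran from 29223765 to 35504571 in the pEtn libraries and from 31280997 to 34474420 in the RPMI libraries. The 6 CD8 T cell markers summed to 2876 to 3751 TPM with pEtn and 2412 to 3314 TPM in RPMI, in overlapping ranges. Of the 6, Cd8b1 had the lowest edgeR adjusted p, 0.104, and was higher with pEtn in 4 of 4 replicate numbers. With the replicate number as a block its adjusted p was 0.00447. Of 5 B cell markers, Ms4a1 and Pax5 were at 0 counts in all 8 libraries and Cd79b had 19 to 95 counts with pEtn and 27 to 87 in RPMI. Of 5 macrophage and dendritic cell markers, Adgre1 and C1qa were at 0, while Itgax had 47 to 234 counts with pEtn and 26 to 128 in RPMI, higher with pEtn in 4 of 4 replicate numbers (edgeR adjusted p = 0.406, and 0.0111 with the replicate number as a block). The 3 NK cell markers summed to 135 to 312 TPM with pEtn and 220 to 394 TPM in RPMI. Most of that was Eomes, which activated CD8 T cells also express and which was lower with pEtn in 4 of 4 numbers (edgeR adjusted p = 0.127, and 0.00167 with the block). Cd4 reached at most 8 counts with pEtn and 35 in RPMI. The 4 markers of CD4 and regulatory T cells summed to 13.9 to 20.05 TPM with pEtn, against 7.70 to 12.3 TPM in RPMI, carried by Zbtb7b. Zbtb7b was higher with pEtn in 4 of 4 numbers (edgeR adjusted p = 0.0262, and 0.00186 with the block). Mitochondrial genes held 2.62% to 2.91% of counts with pEtn, against 1.46% to 2.47% in RPMI. Malat1 and Neat1, nuclear RNAs used as a sign of RNA quality, summed to 32.8 to 62.2 TPM with pEtn and 12.7 to 58.5 TPM in RPMI. These ranges hide a split by replicate number. Malat1 had 26.3, 31.3, 26.1 and 24.9 TPM in pEtn replicates 1 to 4, against 28.7, 36.4, 9.93 and 9.40 TPM in RPMI. Neat1 had 26.9, 30.9, 8.24 and 7.92 TPM with pEtn, against 27.1, 22.1, 3.93 and 3.27 TPM in RPMI. In numbers 3 and 4 both were thus higher with pEtn. The part of these markers and measures in the results below was not tested. In both media, replicates 3 and 4 were closer to each other than any other libraries of that medium.

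With pEtn, the cells held less RNA of the choline carrier gene Flvcr1 and the choline kinase gene Chka and more of the cytidylyl transferase gene Pcyt1b. Flvcr1 stood at 24.3 ± 1.64 CPM with pEtn and 47.6 ± 5.71 CPM in RPMI, Chka at 9.33 ± 0.439 CPM with pEtn and 13.7 ± 1.11 CPM in RPMI, and Pcyt1b at 17.4 ± 2.03 CPM with pEtn and 7.51 ± 0.915 CPM in RPMI (SD, n = 4 each). CPM are counts scaled to the size of the library, with TMM correction. Of the 9 genes, 8 had enough counts to be tested. Of these, 1 rose, 2 fell and 5 did not pass the threshold, an edgeR adjusted p under 0.05 over all genes tested. Over all 11862 genes tested, 12.8% were called, 5.22% higher and 7.56% lower with pEtn. The median log2 fold change of the 8 choline branch genes was -0.27 and that of all genes tested 0.02. The same 3 genes were the ones whose CPM did not overlap between the media, which held for 20.4% of all genes tested. In replicates 1 and 2 alone the log2 fold changes of Flvcr1, Chka and Pcyt1b were -0.88, -0.44 and 1.33, with edgeR adjusted p of 0.0877, 0.324 and 0.0699.

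In alternative fits the replicate numbers were taken as pairs across the media, although no label explains them. With the number as a block, 6 of the 8 genes were called, 2 higher and 4 lower. The added calls were Chkb among the higher genes and Slc44a1 and Slc44a2 among the lower. With replicates 3 and 4 also summed, the block called 4 of the 8, and Chkb (adjusted p = 0.131) and Slc44a2 (adjusted p = 0.0660) no longer passed. On all libraries the block called 32.3% of all genes tested.

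**Figure D1:**
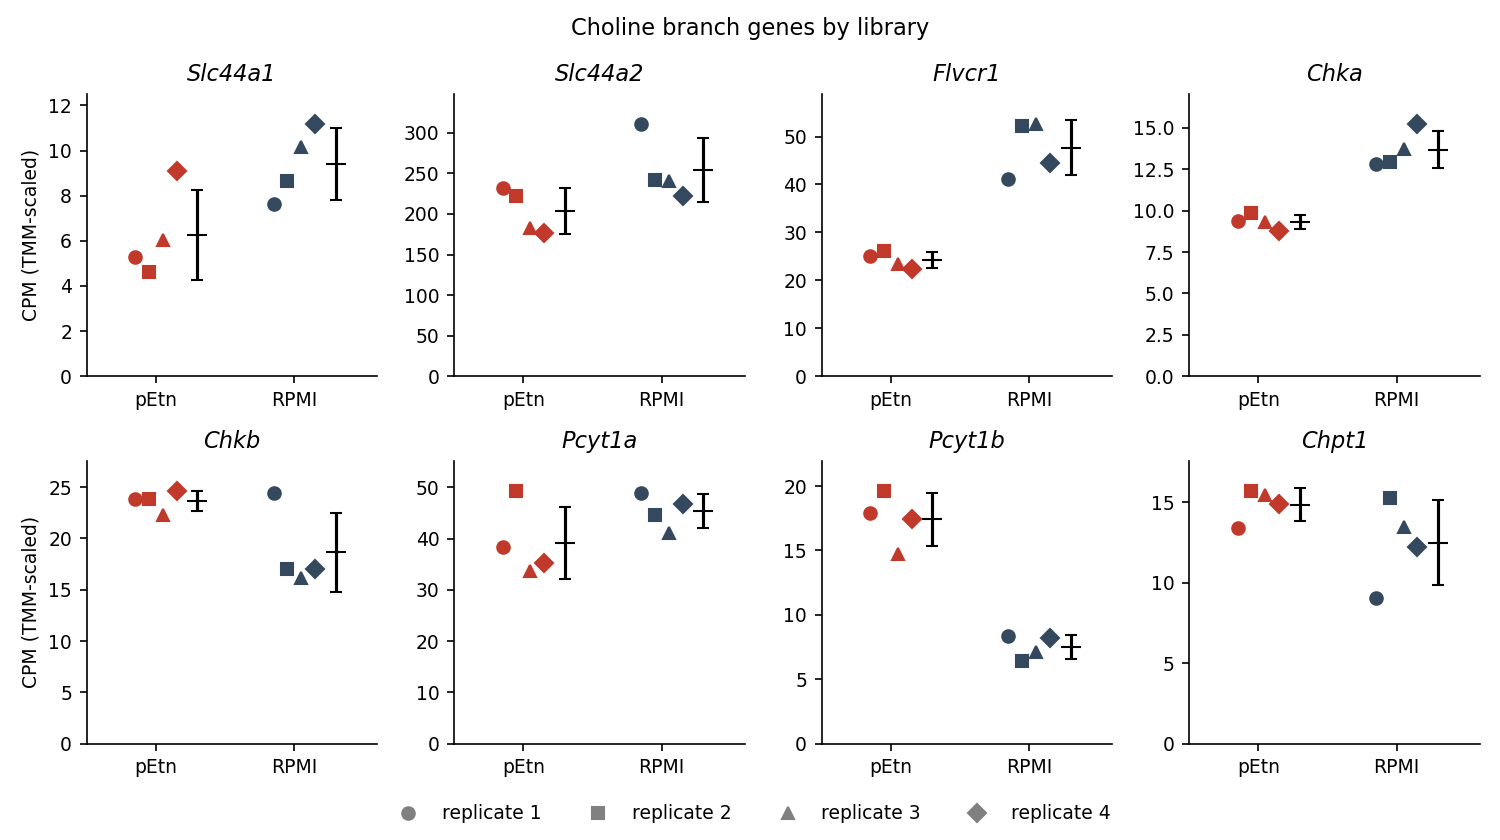
Level of each of the 8 tested choline branch genes, in CPM after TMM scaling (vertical axis from 0), in the pEtn libraries on the left and the RPMI libraries on the right of each panel. Marker shapes give the replicate number and the black bar the mean and SD of 4 libraries. Flvcr1 and Chka lay lower and Pcyt1b higher in every pEtn library than in any RPMI library, and the other 5 genes overlapped.

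Among the carriers, Flvcr1 (ENSMUSG00000066595, chromosome 1, minus strand) encodes a plasma membrane protein first known as a receptor of a feline leukaemia virus and as a heme exporter, and since shown to carry choline and ethanolamine. Flvcr1 had 25.1, 26.1, 23.4 and 22.4 CPM in pEtn replicates 1 to 4, against 41.2, 52.2, 52.7 and 44.5 CPM in RPMI replicates 1 to 4. The highest pEtn library lay well below the lowest RPMI library. Flvcr1 was 1.96-fold lower with pEtn, a log2 fold change of -0.97 (SE 0.11, 95% interval -1.22 to -0.72, edgeR adjusted p = 0.00134). The call held without any 1 of the 8 libraries, with a highest adjusted p of 0.00737, and with replicates 3 and 4 of each medium summed into 1 library (adjusted p = 0.0196). Of all genes tested, 3.79% had a log2 fold change as low or lower.

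The 250 bases before the annotated start of Flvcr1 are shown because this gene fell furthest among the 9. The sequence is that of RefSeq on GRCm38.p6 at chr1:191026191-191026440, minus strand, read 5′ to 3′, with capitals for every match, on either strand, to the motifs searched. Here these are GGGCGG, the letters of the GC box that Sp1-type factors bind, which read CCGCCC where the match is on the other strand.
Flvcr1 upstream: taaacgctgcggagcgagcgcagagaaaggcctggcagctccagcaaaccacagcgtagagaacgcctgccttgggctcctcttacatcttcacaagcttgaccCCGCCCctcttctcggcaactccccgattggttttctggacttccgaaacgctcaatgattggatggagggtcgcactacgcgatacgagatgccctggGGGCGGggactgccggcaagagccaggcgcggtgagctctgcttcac

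Slc44a2 (chromosome 9), which encodes a choline transporter-like protein also found in mitochondria, was by far the most abundant of the 9 genes. It had 233, 223, 182 and 176 CPM in the pEtn libraries, against 311, 242, 241 and 222 CPM in the RPMI libraries. Replicate 1 was the highest in both media, and the lowest RPMI library lay just under the highest pEtn libraries. The log2 fold change was -0.32 (SE 0.13, 95% interval -0.62 to -0.02, edgeR adjusted p = 0.152) and did not pass the threshold. Within each number the pEtn library was the lower one in 4 of 4 pairs, by 0.12 to 0.42 in log2 of CPM plus 0.5, and with the block the edgeR adjusted p was 0.0142, or 0.0660 with replicates 3 and 4 also summed.

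Slc44a1 (chromosome 4) encodes the choline transporter-like protein best studied for choline uptake by cells other than neurons. It had 5.30, 4.60, 6.05 and 9.11 CPM with pEtn, against 7.62, 8.65, 10.1 and 11.2 CPM in RPMI. The 3 lowest values were all from pEtn libraries, and pEtn replicate 4 stood inside the RPMI range. The log2 fold change was -0.58 (SE 0.23, 95% interval -1.10 to -0.07, edgeR adjusted p = 0.129). It was lower in 4 of 4 pairs, and with the block the adjusted p was 0.0101. Without pEtn replicate 4 the unblocked test also called it (log2 fold change -0.82, adjusted p = 0.0432), the only 1 of the 8 fits leaving out a library that did. It was the pEtn library within the RPMI range, so the lower p follows in part from leaving it out.

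Flvcr2, the close relative of Flvcr1 and a choline carrier known from the vessels of the brain, was hardly detected. It had 2, 0, 4 and 8 counts in the pEtn libraries and 4, 2, 2 and 4 counts in the RPMI libraries. It was not tested, and such low counts do not show whether it differed between the media.

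Chka (ENSMUSG00000024843, chromosome 19, plus strand) and Chkb encode the choline kinases, which catalyse the first step after uptake and also accept ethanolamine. Chka had 9.39, 9.84, 9.30 and 8.77 CPM with pEtn, against 12.8, 13.0, 13.7 and 15.2 CPM in RPMI. The 4 pEtn libraries lay close together and all below the RPMI libraries, and replicate 4 was the extreme one on both sides. Chka was 1.47-fold lower with pEtn, a log2 fold change of -0.55 (SE 0.12, 95% interval -0.81 to -0.30, edgeR adjusted p = 0.0140). Without pEtn replicate 4 the log2 fold change was -0.53 (adjusted p = 0.0553) and without RPMI replicate 4 it was -0.50 (adjusted p = 0.0503), so that neither passed. Summing replicates 3 and 4 also ended the call (adjusted p = 0.128, and 0.0281 with the block), as did the limma test of log2 TPM with a pseudocount of 0.1 (adjusted p = 0.0537). Genes with a log2 fold change this low or lower made up 9.86% of those tested.

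Chkb (chromosome 15), the kinase that skeletal muscle depends on, had 23.9, 23.9, 22.3 and 24.6 CPM with pEtn, against 24.4, 17.0, 16.2 and 17.1 CPM in RPMI. RPMI replicate 1 stood with the pEtn libraries, and the other 3 RPMI libraries lay below all of them. The log2 fold change of Chkb was 0.34 (SE 0.14, 95% interval 0.02 to 0.66, edgeR adjusted p = 0.151). It was 0.49 without RPMI replicate 1 (adjusted p = 0.0163), the only 1 of the 8 fits leaving out a library that called Chkb. That library stood apart in these same values, so the lower p follows in part from the choice. With the block on all libraries the adjusted p was 0.0391, or 0.131 with replicates 3 and 4 also summed. The difference was -0.03 in replicate number 1 and 0.45 to 0.51 in the other 3 numbers.

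The row of Chkb may hold more than Chkb. The gene length behind its deposited RPKM equals 5805 bases, after division by the ratio of 1.06 that most genes shared. That is the joint exon length of Chkb and of a neighbouring readthrough transcript in GENCODE M21, whereas the exons of Chkb alone cover 3061 bases. The readthrough transcript runs into the carnitine palmitoyltransferase gene Cpt1b and shares 2744 exon bases with it. The separate row of Cpt1b held 42 to 76 counts in pEtn libraries and 11 to 67 in RPMI libraries. Whether readthrough or Cpt1b reads moved the Chkb values was not tested.

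The upstream bases of Chka, at chr19:3851523-3851772 of GRCm38.p6, plus strand, are shown as those of the kinase gene that fell, with GGGCGG in capitals.
Chka upstream: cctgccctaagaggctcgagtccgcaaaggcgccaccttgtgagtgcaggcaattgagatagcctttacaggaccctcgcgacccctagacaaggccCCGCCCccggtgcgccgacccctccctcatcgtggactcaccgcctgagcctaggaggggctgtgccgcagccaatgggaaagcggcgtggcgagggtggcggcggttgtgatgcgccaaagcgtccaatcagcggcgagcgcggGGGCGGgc

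Pcyt1a and Pcyt1b encode the alpha and beta forms of CTP:phosphocholine cytidylyl transferase, usually the rate-limiting enzyme of the branch. The alpha form is found in nearly all tissues, while the beta form is best known from brain and gonads. Pcyt1b (ENSMUSG00000035246, chromosome X, plus strand) had 17.9, 19.6, 14.7 and 17.5 CPM with pEtn, against 8.34, 6.42, 7.10 and 8.19 CPM in RPMI. Each pEtn library held clearly more than the highest RPMI library. Pcyt1b rose 2.32-fold, a log2 fold change of 1.21 (SE 0.14, 95% interval 0.90 to 1.53, edgeR adjusted p = 0.00137). Leaving out any 1 library kept the call, with a highest adjusted p of 0.00700, as did summing replicates 3 and 4 (adjusted p = 0.0164). Of all genes tested, 1.14% had a log2 fold change as high or higher.

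Pcyt1a (chromosome 16) had 38.3, 49.2, 33.8 and 35.3 CPM with pEtn, against 48.8, 44.6, 41.0 and 46.8 CPM in RPMI. The highest of all 8 values was pEtn replicate 2, and the other 3 pEtn libraries lay below every RPMI library. The log2 fold change of Pcyt1a was -0.21 (SE 0.13, 95% interval -0.50 to 0.08, edgeR adjusted p = 0.328, and 0.129 with the block). This interval leaves room for a fall of up to 0.50 or a small rise, and it does not show that the gene was equal in the media.

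The cytidylyl transferase pair is shown upstream of both annotated starts of Pcyt1b and of the first of the 3 starts of Pcyt1a, since the beta gene rose and the alpha gene was not called. They lie at chrX:93654613-93654862, chrX:93674862-93675111 and chr16:32430671-32430920 of GRCm38.p6, all on the plus strand. In Pcyt1a the capitals mark TCACNCCAC, the letters of a sterol regulatory element, and 2 overlapping matches to GGGCGG, and the Pcyt1b windows have no match.
Pcyt1b upstream of start 1: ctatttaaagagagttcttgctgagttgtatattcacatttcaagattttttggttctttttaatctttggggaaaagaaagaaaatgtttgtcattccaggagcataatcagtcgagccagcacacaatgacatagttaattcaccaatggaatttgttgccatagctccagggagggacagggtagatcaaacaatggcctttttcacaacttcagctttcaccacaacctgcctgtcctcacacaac
Pcyt1b upstream of start 2: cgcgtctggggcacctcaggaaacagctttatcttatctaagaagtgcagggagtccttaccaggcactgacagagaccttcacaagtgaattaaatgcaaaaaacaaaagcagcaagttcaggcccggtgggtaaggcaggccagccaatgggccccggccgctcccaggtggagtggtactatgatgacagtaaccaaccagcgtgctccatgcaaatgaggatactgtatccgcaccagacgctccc
Pcyt1a upstream of start 1: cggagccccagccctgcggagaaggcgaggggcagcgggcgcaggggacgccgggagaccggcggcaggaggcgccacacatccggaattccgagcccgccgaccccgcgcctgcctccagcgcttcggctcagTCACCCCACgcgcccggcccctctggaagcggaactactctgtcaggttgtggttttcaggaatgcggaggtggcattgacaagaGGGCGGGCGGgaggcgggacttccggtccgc

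In these windows GGGCGG occurred 2 times each upstream of Flvcr1, Chka and Pcyt1a, and neither Pcyt1b start had it. Its absence was not particular to Pcyt1b, since start 3 of Pcyt1a and start 2 of Slc44a2, not shown, also had 0 matches. Of other genes that were not called, Chkb had 1 match and Chpt1 5. Upstream of start 1 of Pcyt1b, G and C made up 39.6% of the bases, and upstream of start 2 they made up 53.6%. For Flvcr1, Chka and Pcyt1a these shares were 60.4%, 68.0% and 71.6%, and the median over 32851 mouse promoters of RefSeq was 52.4%. Over all 14 starts of the 9 genes, 10 starts and 8 genes had GGGCGG, against 32.7% of all promoters. These 14 include overlapping windows of Slc44a1 and of Pcyt1a, whose matches are counted again at each start. The E-box CACGTG was upstream of Flvcr2 only, 1 of 14 starts, against 6.02% of all promoters. The sterol regulatory letters TCACNCCAC stood upstream of 2 starts of Pcyt1a whose windows overlap, against 1.05% of all promoters. TGATGNAA and TTGCATCA, the ATF4 and CEBP-ATF letters, were in 0 of the 14 windows and in 3.45% and 0.791% of all promoters. Both strands were searched for each of these, and a match shows only that the letters are there.

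Chpt1 (chromosome 10) encodes the cholinephosphotransferase that makes phosphatidylcholine from CDP-choline and diacylglycerol. It had 13.4, 15.7, 15.4 and 14.9 CPM with pEtn, against 9.06, 15.3, 13.4 and 12.2 CPM in RPMI. RPMI replicate 1 was the lowest of the 8, and the remaining libraries overlapped. The log2 fold change of Chpt1 was 0.25 (SE 0.16, 95% interval -0.11 to 0.61, edgeR adjusted p = 0.353, and 0.0940 with the block). The pEtn library was the higher one in 4 of 4 pairs, by 0.04 in number 2 and 0.54 in number 1.

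**Figure D2:**
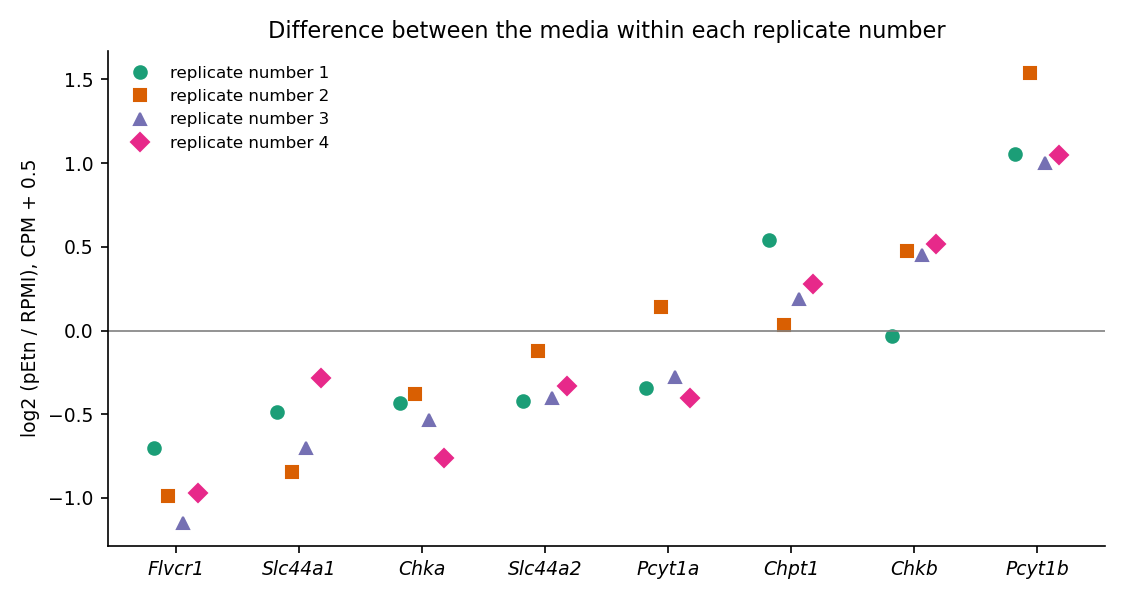
Difference in log2 of CPM plus 0.5, pEtn minus RPMI (vertical axis), between libraries with the same replicate number, for each of the 8 tested choline branch genes (horizontal axis). Marker shapes give the number. Flvcr1 lay between -1.15 and -0.70, Chka between -0.76 and -0.38 and Pcyt1b between 1.0 and 1.54 in the 4 numbers, while Chkb and Pcyt1a had numbers on both sides of 0.

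The share of each gene within its pair of related genes was taken from TPM, which divide by gene length. Pcyt1b made up 33.4%, 29.9%, 31.8% and 34.7% of the cytidylyl transferase TPM in pEtn replicates 1 to 4, against 15.5%, 13.4%, 15.7% and 15.8% in RPMI. The summed level of the 2 genes overlapped, at 22.3 to 31.6 TPM with pEtn and 21.9 to 26.8 TPM in RPMI. Pcyt1a thus remained the more abundant form in all 8 libraries.

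Chka made up 15.97%, 16.6%, 16.8% and 14.7% of the choline kinase TPM with pEtn, against 20.2%, 26.9%, 29.1% and 30.1% in RPMI. Here too the sum overlapped, at 11.9 to 13.2 TPM with pEtn and 10.2 to 14.1 TPM in RPMI, and RPMI replicate 1, the library with the high Chkb value, had the smallest RPMI share. These choline kinase values rest on the Chkb row, which may hold more than Chkb. Slc44a1 made up 1.02% to 2.51% of the Slc44a1 and Slc44a2 TPM with pEtn and 1.20% to 2.45% in RPMI. Flvcr1 made up at least 98.5% of the Flvcr1 and Flvcr2 TPM in every library. The transcripts of these 4 pairs shared 0 stretches of 50 bases in GENCODE M21. Of stretches of 25 bases, Chka and Chkb shared 19 and each of the other pairs 0.

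**Figure D3:**
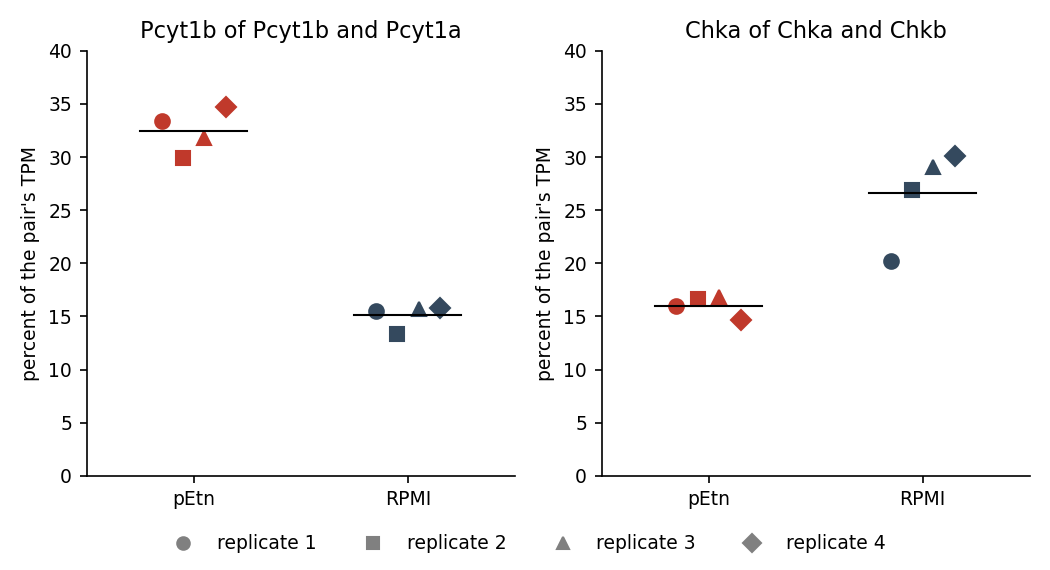
Share of the pair's deposited TPM, in percent (vertical axis), held by Pcyt1b (left panel) and Chka (right panel), with the pEtn libraries to the left of the RPMI libraries. Marker shapes give the replicate number and the lines the mean of 4 libraries. The Pcyt1b share was 29.9% to 34.7% with pEtn and 13.4% to 15.8% in RPMI, and the Chka share 14.7% to 16.8% with pEtn and 20.2% to 30.1% in RPMI. The Chkb row behind the Chka share may hold more than Chkb.

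Ordered by TPM in the pEtn libraries, Slc44a2 came first at 154 ± 22.3 TPM, before Pcyt1a at 17.8 ± 3.07, Flvcr1 at 12.3 ± 0.816, Chkb at 10.7 ± 0.569, Pcyt1b at 8.53 ± 1.02 and Chpt1 at 4.68 ± 0.263 TPM (SD, n = 4). Slc44a1 at 2.37 ± 0.771 and Chka at 2.03 ± 0.0838 TPM followed, with overlapping ranges, and Flvcr2 was last with 0 to 0.174 TPM. In RPMI the order was Slc44a2 at 192 ± 33.4 TPM, Flvcr1 at 24.0 ± 2.73, Pcyt1a at 20.6 ± 1.73 and Chkb at 8.41 ± 1.90 TPM (SD, n = 4). Then came Chpt1 at 3.91 ± 0.790, Pcyt1b at 3.66 ± 0.467, Slc44a1 at 3.52 ± 0.532 and Chka at 2.97 ± 0.196 TPM. From Chpt1 to Chka, neighbours in the order overlapped in range, as did Flvcr1 with Pcyt1a. Flvcr2 was again last with 0.0445 to 0.0969 TPM, below Chka without overlap. By TPM, Flvcr1 was thus the third with pEtn and the second in RPMI, and Pcyt1b stood apart from Chpt1 and Slc44a1 with pEtn only.

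This order depends on the gene length. The lengths behind the deposited values, rescaled as above, were 12024 bases for Chka and 5805 for Chkb, while their longest coding transcripts in GENCODE M21 have 2549 and 1707 bases. For Slc44a1, Flvcr1, Chka, Pcyt1b and Chpt1 the rescaled length equalled the joint exon length in GENCODE M21. For Slc44a2 and Pcyt1a it was 3456 and 5751 bases, against joint exon lengths of 8677 and 7412, so TPM do not treat all these genes alike. Per kilobase of longest coding transcript, Chka was the fifth in both media, at 3.68 ± 0.193 CPM per kilobase with pEtn (here without TMM correction) and 5.34 ± 0.378 in RPMI, and Pcyt1b was the sixth with pEtn and the eighth in RPMI, at 3.58 ± 0.444 with pEtn and 1.53 ± 0.202 in RPMI (SD, n = 4). On that scale Pcyt1b overlapped with Chpt1 in the pEtn libraries, and in RPMI it lay below Slc44a1 without overlap. The mean share of Pcyt1b in its pair was there 30.5% with pEtn and 14.0% in RPMI, and that of Chka 20.9% with pEtn and 33.4% in RPMI. For Chkb this scale divides counts that may include other reads by the length of a Chkb transcript alone.

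**Figure D4:**
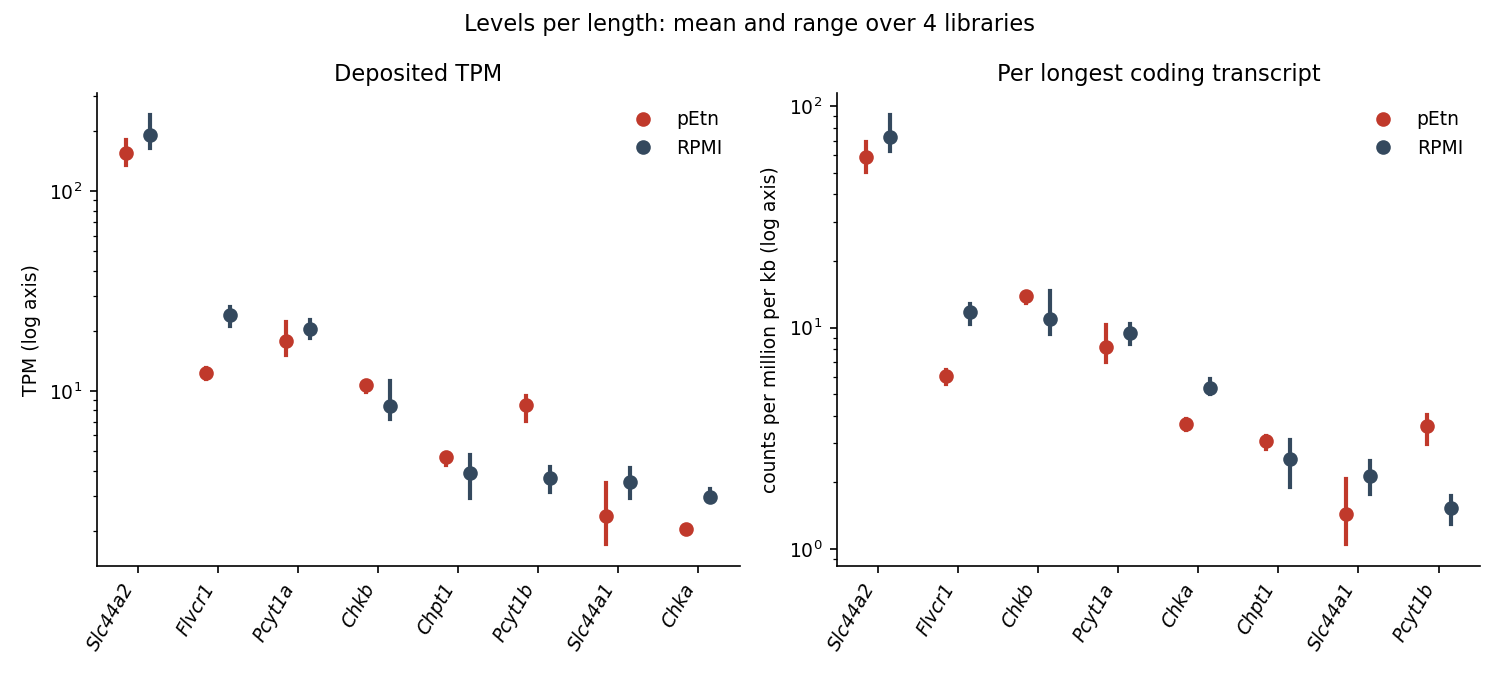
Levels of the 8 tested choline branch genes on log axes, as deposited TPM (left panel) and as CPM, without TMM correction, per kilobase of the longest coding transcript (right panel). Points are means and bars the range of the 4 libraries, with pEtn to the left of RPMI for each gene. Slc44a2 leads on both scales, while Chka moves from last in the left panel to the fifth place.

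For each gene that was called, the 3 other genes whose log2 CPM correlated most with it over the 8 libraries, of 8822 compared, are given as a description. All 8 points share the difference between the media, so a high r also follows from a fold change in the same direction. For Flvcr1 these were Ece2, an endothelin-converting enzyme (r = 0.996), the carrier gene Slc35f2 (r = 0.990) and Slc16a1, the lactate and pyruvate carrier MCT1 (r = 0.989). Slc16a1 stood at 115 ± 5.52 CPM with pEtn and 205 ± 13.4 CPM in RPMI (SD, n = 4). For Chka they were the translation elongation factor gene Eef1b2 (r = 0.992), the deubiquitinase gene Otulin (r = 0.992) and Znhit6, of box C/D snoRNP assembly (r = 0.989). Eef1b2 stood at 629.7 ± 15.6 CPM with pEtn and 899.6 ± 66.3 CPM in RPMI (SD, n = 4). For Pcyt1b they were Golga2, the Golgi matrix protein GM130 (r = 0.982), the phosphatase gene Cdkn3 (r = 0.982) and Fam107b (r = 0.981). Cdkn3 stood at 33.9 ± 1.01 CPM with pEtn and 19.9 ± 2.67 CPM in RPMI (SD, n = 4).

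Of 33 other genes of choline and phosphatidylcholine metabolism, 18 could be tested. With pEtn 1 rose and 4 fell, against 5 higher and 7 lower with the block, and their median log2 fold change was -0.03. Of all genes tested, 12.8% were called without the block and 32.3% with it. Among 7 further uptake genes only Mfsd2a, a carrier of lysophosphatidylcholine, had enough counts. It had 4.66, 6.54, 7.02 and 7.11 CPM with pEtn, against 8.01, 12.3, 22.6 and 19.4 CPM in RPMI. Its CPM did not overlap between the media, as for 20.4% of all genes tested. Mfsd2a fell by 1.30 on the log2 scale (SE 0.30, edgeR adjusted p = 0.0224), and the call was lost without pEtn replicates 1 or 4 or RPMI replicates 3 or 4 (highest adjusted p = 0.0650, without RPMI replicate 3). With replicates 3 and 4 summed, Mfsd2a had an adjusted p of 0.119. The neuronal high-affinity choline transporter gene Slc5a7 was at 0 counts in all 8 libraries, as was Chat, which makes acetylcholine from choline. A limit of 3 counts corresponds to 0.0845 to 0.103 CPM in these libraries, for counting error only.

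Cept1, which encodes the phosphotransferase that completes both phosphatidylcholine and phosphatidylethanolamine, stood at 47.7 ± 4.69 CPM with pEtn and 49.1 ± 4.11 CPM in RPMI (SD, n = 4). The log2 fold change of Cept1 was -0.04 (95% interval -0.28 to 0.19, edgeR adjusted p = 0.834). The methylation route uses S-adenosylmethionine, made by the enzyme of Mat2a. Mat2a had 251, 315, 287 and 264 CPM with pEtn, against 362, 510, 518 and 493 CPM in RPMI, and fell by 0.75 on the log2 scale (SE 0.13, edgeR adjusted p = 0.00619). Ahcy, whose enzyme clears the S-adenosylhomocysteine left after methylation, had 244, 256, 284 and 292 CPM with pEtn, against 452, 417, 536 and 533 CPM in RPMI. Ahcy fell by 0.85 on the log2 scale (SE 0.11, edgeR adjusted p = 0.00193). Neither Mat2a nor Ahcy overlapped between the media, which held for 20.4% of all genes tested. With replicates 3 and 4 summed, Mat2a did not pass (adjusted p = 0.0642). Pemt, the methyltransferase of the route itself, stood at 1.42 ± 0.182 CPM with pEtn and 2.31 ± 0.285 CPM in RPMI (SD, n = 4, edgeR adjusted p = 0.0651, and 0.0223 with the block). The blocked call ended with replicates 3 and 4 summed (adjusted p = 0.0683). Pemt also passed with DESeq2 (adjusted p = 0.0305) and, with limma, on log2 TPM or RPKM plus a pseudocount (adjusted p from 0.0237 to 0.0372).

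Of 9 genes that break down phosphatidylcholine or its products, 7 were tested, 1 rose and 1 fell, against 3 higher and 1 lower with the block. Over all genes tested, 12.8% were called, and 32.3% with the block. Pld2, a phospholipase D that releases choline, had 10.98, 8.49, 7.36 and 7.31 CPM with pEtn, against 4.44, 5.63, 4.80 and 4.52 CPM in RPMI, and rose by 0.81 on the log2 scale (SE 0.18, edgeR adjusted p = 0.0174). Pld2 did not pass when RPMI replicate 3 (adjusted p = 0.0527) or 4 (adjusted p = 0.0544) was left out, or replicates 3 and 4 were summed (adjusted p = 0.0875). Gde1, a glycerophosphodiesterase, fell by 0.41 (SE 0.12, edgeR adjusted p = 0.0468), at 39.2 ± 3.20 CPM with pEtn and 51.9 ± 6.72 CPM in RPMI (SD, n = 4). This call was lost in 7 of the 8 fits that left out a library, all but that without RPMI replicate 1, with a highest adjusted p of 0.135 without RPMI replicate 3, and with replicates 3 and 4 summed (adjusted p = 0.201) or no filter on low counts (adjusted p = 0.0592). Gpcpd1, which splits glycerophosphocholine into choline and glycerol phosphate, stood at 45.4 ± 3.53 CPM with pEtn and 35.9 ± 3.60 CPM in RPMI (SD, n = 4, edgeR adjusted p = 0.0648, and 0.0121 with the block). It did not pass with replicates 3 and 4 summed and the block (adjusted p = 0.0528). Gpcpd1 passed with DESeq2 (adjusted p = 0.0252), on library totals without TMM (0.0420) and among genes of at least 5 CPM in 4 or more libraries (0.0489). The 5 genes of phosphatidylcholine transfer and sphingomyelin synthesis had adjusted p from 0.0892 to 0.828 and did not pass the threshold, and with the block 2 were higher and 2 lower. Of 5 genes of choline oxidation only Aldh7a1 was tested (edgeR adjusted p = 0.911), and of 3 acetylcholine genes no gene had enough counts.

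In the ethanolamine branch, 6 of 8 genes were tested, of which 2 fell, with the same split with the block, and their median log2 fold change was -0.11. The share called over all genes tested was 12.8%, and 32.3% with the block. Pisd, the decarboxylase that makes phosphatidylethanolamine in mitochondria, had 26.9, 30.1, 28.6 and 26.4 CPM with pEtn, against 47.9, 55.5, 48.1 and 43.1 CPM in RPMI. Selenoi (listed as Ept1), the ethanolaminephosphotransferase, had 63.8, 69.0, 51.9 and 50.2 CPM with pEtn, against 93.9, 118, 82.3 and 72.7 CPM in RPMI. Both lay lower in every pEtn library than in any RPMI library, and 20.4% of all genes tested likewise had no overlap in either direction. The Selenoi call (edgeR adjusted p = 0.0325) was lost in 6 of the 8 fits that left out a library, all but those without pEtn replicate 2 or RPMI replicate 4, with a highest adjusted p of 0.0939 without pEtn replicate 4, and with replicates 3 and 4 summed (adjusted p = 0.105). Pisd, with an edgeR adjusted p of 0.00199, kept its call in all 8 such fits. Pcyt2 and Etnk1, the cytidylyl transferase and kinase of that branch, differed by -0.02 (95% interval -0.27 to 0.24) and -0.04 (95% interval -0.43 to 0.36) on the log2 scale, and the phosphatidylserine synthase genes Ptdss1 and Ptdss2 by -0.15 (95% interval -0.35 to 0.04) and -0.06 (95% interval -0.41 to 0.28).

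**Figure D5:**
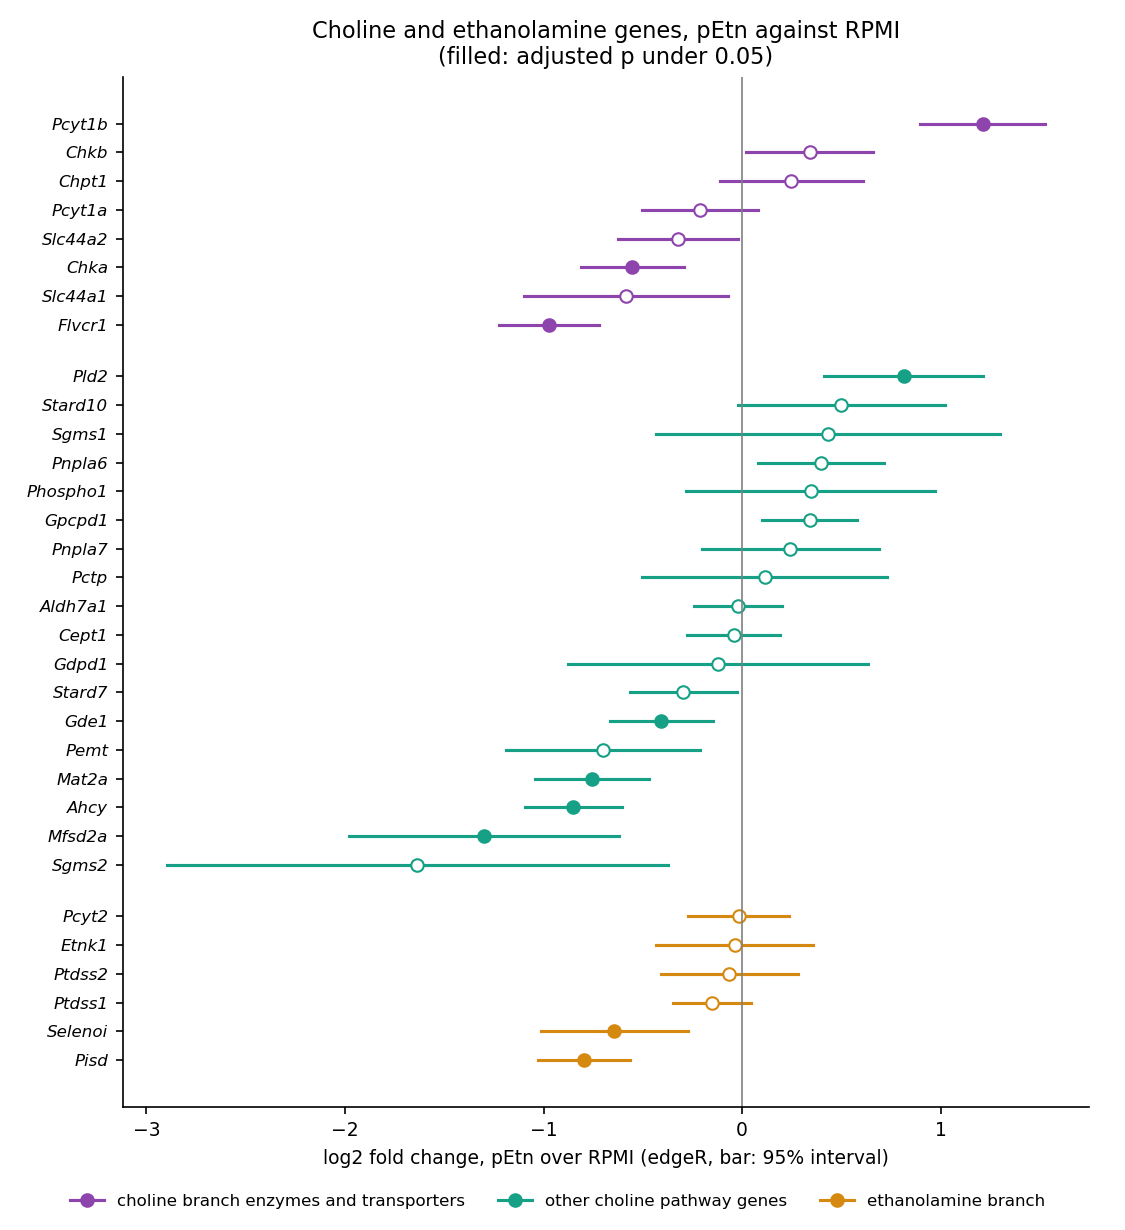
Log2 fold change, pEtn over RPMI (horizontal axis), with its 95% interval from edgeR, for the tested choline branch genes, the other choline pathway genes and the ethanolamine branch, in that order down the page. Filled points passed an adjusted p under 0.05. Pcyt1b lies at 1.21 and Flvcr1 at -0.97 at the ends of the choline branch, and the intervals of Pcyt1a and Chpt1 cross 0.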

How the data were processed

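Bulk RNA-seq of 4 pEtn and 4 RPMI libraries was analysed. Per the labels' protocols, sorted cells were lysed and their RNA was copied to cDNA by SmartSeq with 15 cycles of amplification. GRCm39 is the genome build named in the submitters' processing notes. What aligner, counter, annotation and strand setting were used is not given in the sources used here. The authors deposited a whole-number count per gene and library, used for every main test, and TPM and RPKM, used for levels, shares and alternatives. A deposited column named CPM, proportional to the counts within a library and treated as a signal, was not used.

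The test of counts was that of edgeR 4.0.16, in R 4.3.3 (filterByExpr, TMM, robust quasi-likelihood F test, Benjamini-Hochberg adjustment), which kept 11862 of 17625 genes with any count. Only the edgeR test without the block was also run on simulated counts. Alternatives used limma 3.58.1 on log2 TPM or RPKM plus a pseudocount, and DESeq2 1.42.0. Gene lengths and shared stretches came from GENCODE M21, promoters from RefSeq. Counting intervals cover counting error only, since reads carry no molecular identifiers. Of the opposite-strand genes overlapping the members, those in the deposited table held at most 11 counts in any library, and 2 others had no row matched there. Proteins were not compared here.

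Named were all 9 genes of the branch, every called gene of the other lists, 11 genes of those lists whatever their values, and the 3 genes correlating best with each called one (mean of at least 5 CPM, clones and pseudogenes left out). The genes and lists were chosen with earlier results of these data known. Deviations from the group means of same-numbered libraries correlated at 0.566, 0.547, 0.441 and 0.451 over 11862 genes, all above 0.1. The number was therefore used as a block in alternative fits, while the main test had no block. No label explains the numbers. Across numbers, pEtn replicate 4 with RPMI replicate 3 (0.406), pEtn 3 with RPMI 4 (0.382) and pEtn 1 with RPMI 2 (0.153) also lay above 0.1. The chi-square per gene between replicates 3 and 4 was 5.04 with pEtn and 11.2 in RPMI, against 51.1 to 107 for other pairs within a medium, above counting noise, and they were kept as separate libraries.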

Additional observations from a re-analysis of the deposited data

Results flagged for a closer look

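In 16 sets of 4 libraries (8 tested choline branch genes in each medium), 1 library stood far from the other 3 of its medium. It was RPMI replicate 1 for Chkb, at 24.4 CPM against 16.2 to 17.1 CPM in the other RPMI libraries. The gap to the nearest library was 0.891 of the whole range, above the limit of the Dixon test at 95%, and chance alone flags about 1 in 20 such sets. The row of the neighbouring Cpt1b held 11 to 67 counts over the RPMI libraries, and whether it bears on this value was not tested. Without RPMI replicate 1 the log2 fold change of Chkb was 0.49 (edgeR adjusted p = 0.0163), against 0.34 (adjusted p = 0.151) with all libraries. That library was singled out by these same values, so the lower p follows in part from the choice.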

How the results depend on the processing

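The replicate block called 3830 genes, 6 of the 8 tested choline branch genes and 12 of the other choline pathway genes, against 1516, 3 and 5 without it. With replicates 3 and 4 summed, 325 genes, 2 of the branch and 1 other were called, and with the block on these sums 2329 genes, 4 of the branch and 6 others. Replicates 3 and 4 only gave 5675 genes, 7 of the branch and 12 others. These replicates lay far closer to each other than the other libraries did (chi-square per gene 5.04 with pEtn and 11.2 in RPMI). Their spread therefore understates that between libraries, and these calls cannot be weighed against those of the other fits. Genes were filtered anew for this fit, and the share called is not given. Replicates 1 and 2 only gave 32 genes and, by edgeR, 0 of the branch and 0 others (4 and 6 at an unadjusted p under 0.05; no other tool was run on them). Leaving out 1 library gave 796 to 1638 genes, 2 to 4 of the branch and 2 to 6 others. With lengths of the longest coding transcript, chosen after seeing the data, only 2 of the 9 genes kept their rank in both media.

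None of the 8 tested choline branch genes changed sign in its 21 alternatives. Signs near 0 turned for 4 uncalled genes. Cept1 was at 0.012 with replicates 3 and 4 summed and the block, 0.013 without the block, at 0.11 in replicates 1 and 2 only, and -0.10 to 0.00089 in leave-one-out fits. Etnk1 was at 0.0086 in replicates 3 and 4 only, 0.00052 and 0.00076 on log2 TPM with pseudocounts of 1 and 0.1, and -0.13 to 0.17 in leave-one-out fits. Pcyt2 was at 0.062 with replicates 3 and 4 summed and the block, 0.061 without the block, 0.21 in replicates 1 and 2 only, and -0.091 to 0.059 in leave-one-out fits. Ptdss2 ranged from -0.16 to 0.023 in leave-one-out fits. The causes were not tested. Flvcr2, at 8 counts or fewer, is limited by depth.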
